A study of Mus musculus with 6 samples.

Results

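The nuclear genes of the mitochondrial ribosome were followed through 3 sorted populations of early blood cells. A gene belonged to the family when a probe set named it alone and its symbol began with Mrpl or Mrps and a digit, which gave 76 of the 18193 genes measured. Each gene was read from 1 probe set, a group of short probes for 1 transcript, namely the one with the highest mean over all arrays. Values are log2 intensities, so a difference of 1 is a 2-fold change. The cells were LSK cells of adult mouse bone marrow, from animals 10 to 14 weeks old. LSK cells lack the markers of mature lineages, carry Kit and Sca1, and include the blood stem cells. Sorting on CD34 and Flt3 gave a CD34-Flt3- population, a CD34+Flt3- population and a CD34+Flt3hi population, with 2 expression arrays for each. No genotype, strain or treatment is named in the labels used here. As far as these say, the groups differ in the sort and in the codes of the sample titles, described below.

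Mitochondria keep their own ribosome, which translates the few mitochondrial messages, all of them for subunits of the respiratory chain and the ATP synthase in mammals. Its RNA is encoded in the mitochondrial genome, while its proteins are made in the cytosol from nuclear genes and imported. Mrpl proteins belong to the large subunit, which forms peptide bonds, and most Mrps proteins to the small subunit, which reads the message. Some have a counterpart in the bacterial ribosome and others were gained later. Quiescent blood stem cells are known to rely little on mitochondrial respiration. ETS factors such as GABP, and the factors NRF1 and YY1, are known to act on the promoters of many nuclear genes for mitochondria.

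A log2 of 4.50 was taken as background, from 27 control probe sets for bacterial RNA (their 90th percentile). Cd34 and Flt3 RNA followed the sort over both steps. Their log2 differences were 2.23 (limma adjusted p = 0.000869) and 3.48 (adjusted p = 0.00215) between CD34+Flt3hi and CD34-Flt3- cells. Of 4 genes listed for the sorted antigens 3 were measured. The measured one beside Cd34 and Flt3 was lower in this comparison, without overlap of the arrays, and was not called. In each of the single steps 1 of the 3 was called higher. Ptprc, the pan-leukocyte gene, was detected in all groups. Of 31 measured markers of mature lineages, 15 had a mean below background and 6 were below it on every array. Between CD34+Flt3hi and CD34-Flt3- cells 2 of the 31 were called higher and 4 lower, against 2.62% and 3.5% of all genes. The higher ones were 1 T and NK marker and 1 neutrophil and monocyte marker. The lower ones were 1 stromal and endothelial marker and 3 megakaryocyte markers. The 4 megakaryocyte markers (Gp9, Itga2b, Pf4 and Ppbp) had a mean log2 intensity of 7.12 and 7.46 in the CD34-Flt3- duplicates, 7.48 and 6.87 in those of CD34+Flt3- and 5.27 and 5.13 in those of CD34+Flt3hi. Of them 2 were called lower from CD34+Flt3- to CD34+Flt3hi cells and 3 over both steps, with medians of -2.14 and -2.15, and Ppbp had a mean below background; their part in the results on the family was not tested. Nothing in the labels tells if duplicates stem from different mice or sorts, so p-values reflect no more than the spread among these arrays, possibly a technical one. RNA went through a second round of in vitro transcription, and Gapdh read higher at its 3 prime than at its 5 prime end. The ratio was 5.04 and 6.34 in the CD34-Flt3- duplicates and 6.59 to 8.42 elsewhere. For Actb it was 3.58 and 5.55 in the CD34-Flt3- duplicates and 3.25 to 4.44 elsewhere, so the 2 genes ranked the arrays differently. Sample titles also hold a code whose meaning is not given, here A for all second replicates, C for the first CD34-Flt3- replicate and B for both other first replicates. With 2 against 2 arrays the smallest p of an exact permutation test is 0.333, and no such test was used.

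As deposited, the mean level of the family differed between the populations by less than the gap between the CD34-Flt3- duplicates. All 76 genes read above background on every array. Their mean log2 intensity was 8.58 and 8.43 in the CD34-Flt3- duplicates (here and throughout replicate 1, then replicate 2), 8.50 and 8.53 in those of CD34+Flt3- and 8.61 and 8.63 in those of CD34+Flt3hi. The CD34-Flt3- arrays thus lay on both sides of the CD34+Flt3- arrays, and the CD34+Flt3hi arrays lay above all others by less than the gap between the CD34-Flt3- arrays. These are levels in bulk RNA of sorted cells, in which fewer cells with a transcript and less transcript per cell cannot be told apart.

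**Figure D1:**
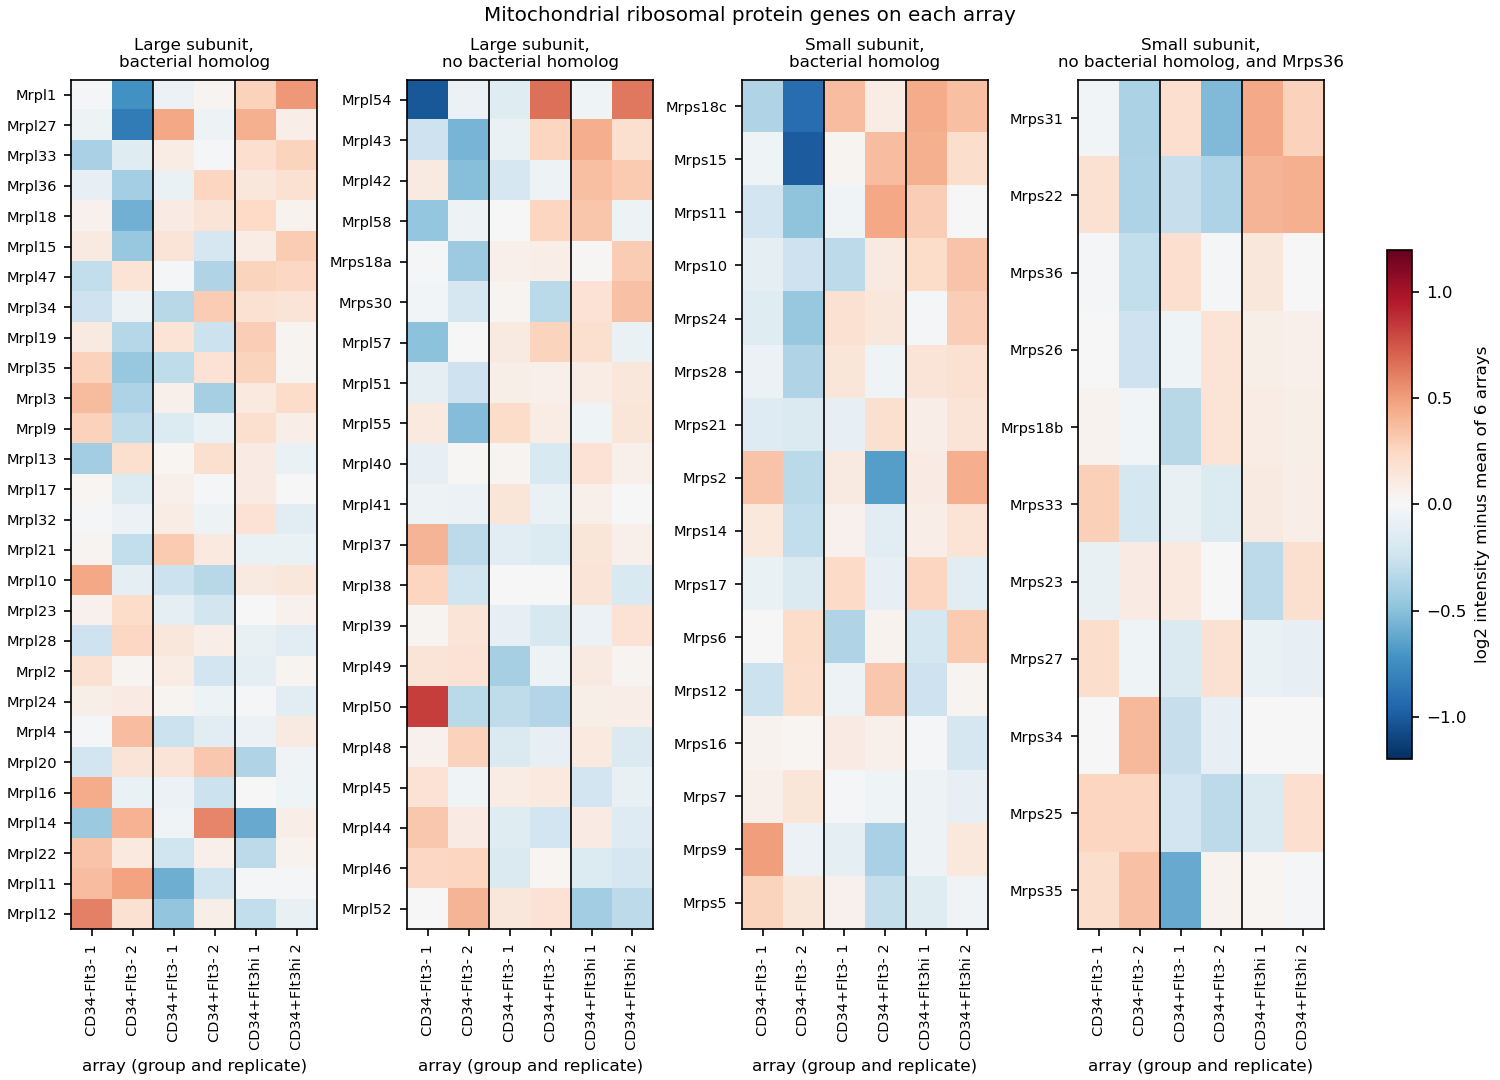
Heat maps of the 76 genes in 4 classes, with Mrps36, which is in none of them, shown in the last panel, and with 1 column for each of the 6 arrays and colour for the log2 intensity minus the gene's mean over the 6 arrays. Genes are sorted in each class by the difference between CD34+Flt3hi and CD34-Flt3- cells, and most cells of the maps are pale, with the strongest colours in the CD34-Flt3- columns.

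Between CD34+Flt3- and CD34-Flt3- cells, 0 of the 76 genes passed an adjusted p of 0.05 by limma (3 had an unadjusted p under 0.05, against 16.9% of all genes), where 2.1% of all genes passed (0.77% higher and 1.33% lower). The median log2 difference of the family was 0.04, with 41 genes positive and 35 negative, while the median of all genes was -0.10 with 39% positive and 61% negative. This direction was not stable, since the median was -0.08 without CD34-Flt3- replicate 2, -0.02 without CD34+Flt3- replicate 1 and 0.29, with 56 genes positive, when the arrays were quantile normalized again. As deposited, the 75th percentile of all genes ran from 7.59 to 8.07 over the arrays and was highest on CD34-Flt3- replicate 1. Both CD34+Flt3- arrays lay above both CD34-Flt3- arrays for 18 genes of the family and below them for 18, compared with 15.6% and 28.6% of all genes. Single differences ran from -0.84 for Mrpl11 to 0.87 for Mrps18c.

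From CD34+Flt3- to CD34+Flt3hi cells the counts were again 0 of 76 by limma (2 at an unadjusted p under 0.05, against 6.76% of all genes), where 0.61% of all genes passed (0.385% higher and 0.225% lower). The median was 0.11, with 53 genes positive and 23 negative, and turned to -0.05, with 33 positive, under repeated quantile normalization. The median of all genes was 0.03 with 54% positive and 46% negative. Arrays did not overlap for 27 genes that were higher and 7 that were lower in CD34+Flt3hi cells, compared with 22.7% and 17.7% of all genes. Within code A the family's median was 0.08 (43 genes positive) and within code B it was 0.09 (54 positive), each from 1 array per group.

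Over both steps, CD34+Flt3hi against CD34-Flt3- cells, 1 of 76 genes was called, Mrps18c (6 had an unadjusted p under 0.05, against 18.3% of all genes), and it was higher in CD34+Flt3hi cells. Of all genes 6.11% passed, 2.62% as higher and 3.5% as lower. The count of members depended on the fit. It was 7 (6 higher and 1 lower) when blocked on the title code, a fit that called a larger share of all genes than of members. It also rose without CD34-Flt3- replicate 1, and the call of Mrps18c was lost without any other single array. The median of the family was 0.11, with 44 genes positive and 32 negative, against -0.07, 42.3% positive and 57.7% negative over all genes. It was 0.19 with 51 positive after repeated quantile normalization and 0.22 with 52 positive after centring each array on its median, and it ran from 0.04 to 0.21 when 1 array was left out. Both CD34+Flt3hi arrays lay above both CD34-Flt3- arrays for 27 genes and below them for 16, compared with 18.8% and 29.1% of all genes. This comparison shares its arrays with the others and adds no separate evidence to them.

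**Figure D2:**
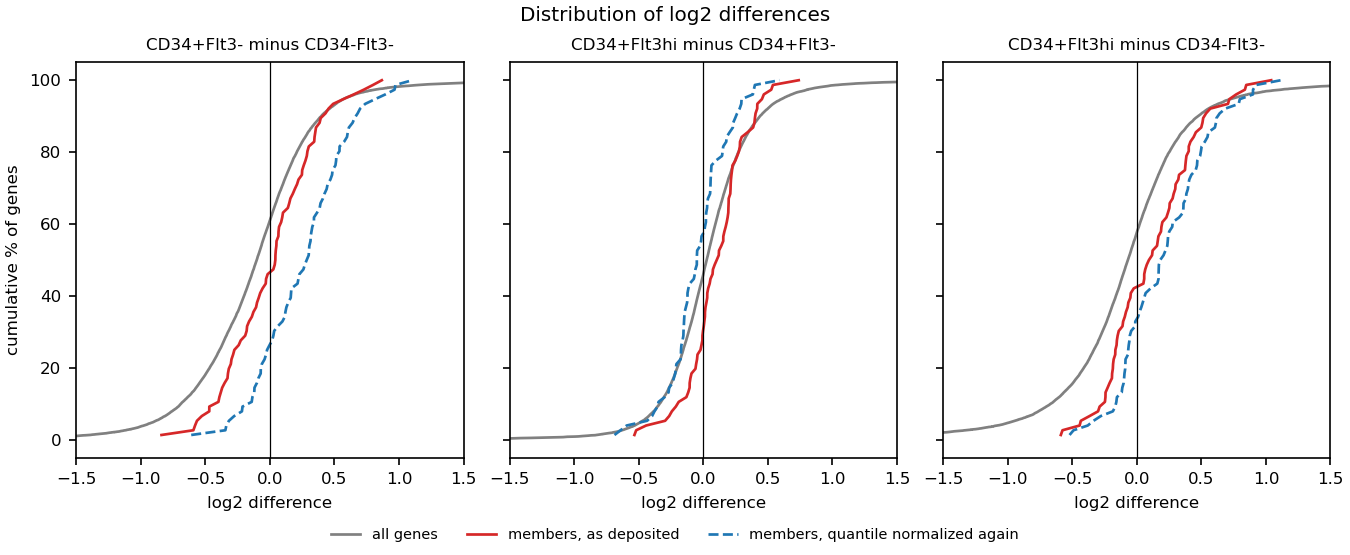
Cumulative percentage of genes (vertical axis) against the log2 difference (horizontal axis) in the 3 comparisons, for all 18193 genes and for the 76 mitochondrial ribosomal protein genes as deposited and after repeated quantile normalization. The curves of the family as deposited are steeper than or shifted slightly to the right of those of all genes; repeated normalization moved the family from a median of 0.04 to 0.29 in the first panel and from 0.11 to -0.05 in the middle one.

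The spread of the family depended on the scaling. As deposited, differences of more than 0.5 in either direction were found for 10, 5 and 12 of the 76 genes in the 3 comparisons (13.2%, 6.58% and 15.8%), against 24.9%, 12.5% and 24.8% of all genes. After repeated quantile normalization they were found for 20, 4 and 16 members (26.3%, 5.26% and 21.1%), against 21.2%, 11.4% and 23.8% of all genes, so the first share no longer lay below that of all genes. As deposited, a difference of 1 or more was found for 0, 0 and 1 of them, against 5.45%, 2.29% and 7.74% of all genes. The median SD between the arrays of a group was 0.23, 0.14 and 0.10 for the family in the order of the sort, and 0.24, 0.18 and 0.13 for all genes. The 95% confidence interval of a family member's difference reached a median of 0.57 to each side. It stayed within -1 and 1 for 58, 66 and 57 of the 76 genes and held 0 for 73, 74 and 70. These intervals were not adjusted for the number of genes. They reflect only the spread among these arrays at the deposited scaling, so they do not bound the differences between the populations. As deposited, group means rose in the order CD34-Flt3-, CD34+Flt3-, CD34+Flt3hi for 25 genes and fell in that order for 7, while 16 were highest and 28 lowest in CD34+Flt3- cells. These counts depend on the scaling. Repeated quantile normalization raised the number of members with a positive first difference from 41 to 56. For the middle difference it lowered that number from 53 to 33. Among all genes as deposited, 61% fell at the first step and 54% rose at the next.

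Small subunit proteins with a bacterial counterpart made up 16 genes, and the only called gene was among them. Their medians were 0.12, 0.10 and 0.23 in the 3 comparisons, and 0.37, -0.06 and 0.32 under repeated quantile normalization. Mrps18c (Entrez gene 68735) encodes 1 of the 3 mammalian relatives of the bacterial small subunit protein S18. It gave 9.07 and 8.52 in the CD34-Flt3- duplicates, 9.81 and 9.52 in those of CD34+Flt3- and 9.88 and 9.80 in those of CD34+Flt3hi. Both CD34-Flt3- arrays lay below the other 4 arrays, while CD34+Flt3- and CD34+Flt3hi arrays overlapped. CD34+Flt3hi cells (9.84 ± 0.06, SD, n = 2) exceeded CD34-Flt3- cells (8.80 ± 0.39, n = 2) by 1.04 ± 0.25 (SE) on the log2 scale, or 2.06-fold, with a 95% interval of 0.48 to 1.60 (limma adjusted p = 0.0383; 1.27 within code A). The difference of CD34+Flt3- cells from CD34-Flt3- cells was 0.87 ± 0.25 and did not pass (adjusted p = 0.117), and the step to CD34+Flt3hi cells was 0.17 (adjusted p = 0.979).

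The call of Mrps18c was close to the threshold. Its adjusted p was 0.0832 without CD34-Flt3- replicate 2 (difference 0.77), 0.0596 and 0.0603 without CD34+Flt3- replicates 1 and 2, and 0.344 and 0.265 without CD34+Flt3hi replicates 1 and 2. It was 0.0510 with no intensity trend in the fit and 0.0615 with only the 4 arrays compared. The difference itself stayed between 0.77 and 1.32 over all settings. The smaller difference of CD34+Flt3- cells passed with repeated quantile normalization (1.10, adjusted p = 0.0233), without CD34-Flt3- replicate 1 (1.14, adjusted p = 0.0231) and in a fit blocked on the title code (1.05, adjusted p = 0.0129), in which CD34-Flt3- cells are represented by replicate 2 only. Genes of G2 and M phase moved on the same arrays. Their mean log2 intensity over 21 genes was 7.94 and 6.10 in the CD34-Flt3- duplicates, 9.18 and 9.38 in those of CD34+Flt3- and 9.60 and 9.69 in those of CD34+Flt3hi, and 20 of the 21 were called higher in CD34+Flt3hi cells than in the CD34-Flt3- group. Their part in the Mrps18c result was not tested.

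The promoter of Mrps18c is shown because this gene carried the family's only call. The 158 bases between its start and that of its divergent neighbour Helq, a DNA helicase gene, lie at chr5:100798601-100798758 on the plus strand (RefSeq, GRCm38.p6), and the capitals mark CCGGAAG, the core of many binding sites of ETS factors, here read on the opposite strand. Of the letters searched below, CACGTG also lies outside the stretch shown, at position -163 from the start of Mrps18c.
Mrps18c: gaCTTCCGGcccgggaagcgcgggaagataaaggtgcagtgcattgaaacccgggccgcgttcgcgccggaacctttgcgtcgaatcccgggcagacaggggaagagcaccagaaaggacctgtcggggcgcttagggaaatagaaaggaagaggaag

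The other relatives of S18 did not share the size of this difference. Mrps18b, also of the small subunit, gave log2 differences of -0.09, 0.16 and 0.08 in the 3 comparisons, the first changing sign under both other scalings, and Mrps18a, which sits in the large subunit despite its name, gave 0.29, 0.09 and 0.38 (limma adjusted p = 0.526 for the last). Although related to S18, both were counted here as proteins without a bacterial counterpart, Mrps18b in the small and Mrps18a in the large subunit. The difference between these genes and Mrps18c was not tested. Mrps15, another core small subunit protein, gave 9.32 and 8.37 in the CD34-Flt3- duplicates, 9.40 and 9.74 in those of CD34+Flt3- and 9.80 and 9.58 in those of CD34+Flt3hi. Its lowest array was CD34-Flt3- replicate 2, and both CD34-Flt3- arrays lay below the others. The difference over both steps was 0.85 ± 0.31 (SE), which did not pass (adjusted p = 0.173), and 2 further probe sets gave 0.43 and 0.58. Without CD34-Flt3- replicate 1 it was 1.32 (adjusted p = 0.00723). Mrps2, also a protein of the small subunit, differed by 0.54 between CD34+Flt3hi and CD34+Flt3- cells (adjusted p = 0.901), with the arrays overlapping.

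Small subunit proteins without a bacterial counterpart, 10 genes, had the lowest median of the 4 classes in the first comparison and the highest in the next as deposited. By limma 0 were called in each comparison (0, 1 and 0 at an unadjusted p under 0.05). The medians were -0.12, 0.20 and -0.01, and repeated quantile normalization gave 0.13, 0.05 and 0.11, so the first and the last changed sign. Mrps22, mutated in an inherited mitochondrial disease, gave 8.23 and 7.68 in the CD34-Flt3- duplicates, 7.78 and 7.68 in those of CD34+Flt3- and 8.45 and 8.48 in those of CD34+Flt3hi. The CD34+Flt3hi arrays were the highest of the 6, and the other groups overlapped. Its difference between CD34+Flt3hi and CD34+Flt3- cells, 0.74 ± 0.27 (SE), was the largest of the family in that comparison and did not pass (limma adjusted p = 0.565; 0.80 within code A and 0.68 within code B). Mrps31 differed by 0.53 in the same comparison (adjusted p = 0.87). Mrps35, for CD34+Flt3- against CD34-Flt3- cells, gave -0.56 (adjusted p = 0.349). Mrps36, kept in the family by its symbol, is now known as a subunit of the 2-oxoglutarate dehydrogenase complex, and it was counted in neither subunit here.

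**Figure D3:**
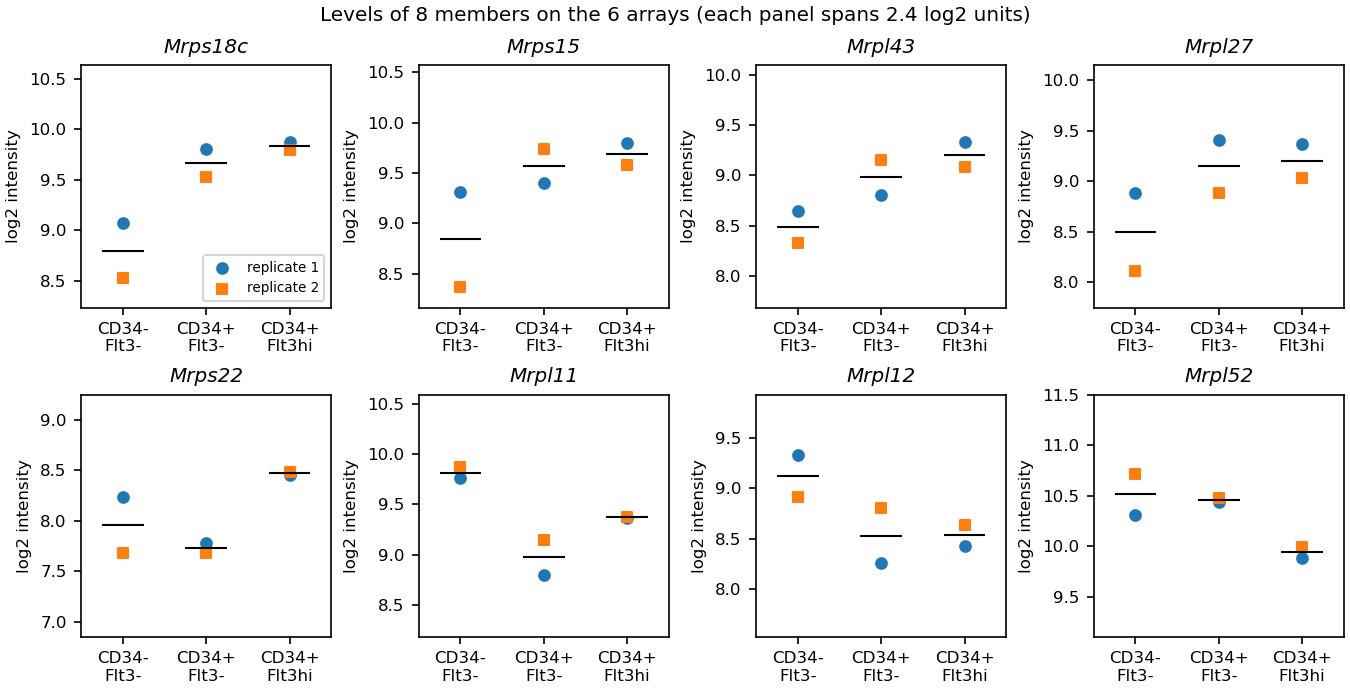
Log2 intensity (vertical axis) of 8 family members on the 6 arrays by group, with a circle for replicate 1, a square for replicate 2 and a bar for the group mean; every panel spans 2.4 log2 units. By group mean Mrps18c, Mrps15, Mrpl43 and Mrpl27 are lowest in CD34-Flt3- cells, Mrpl11 and Mrpl12 are highest there, and both CD34+Flt3hi arrays are the highest for Mrps22 and the lowest for Mrpl52.

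Large subunit proteins with a bacterial counterpart, 28 genes, had medians of 0.06, 0.11 and 0.09, with 0 called by limma in each comparison (1, 0 and 2 at an unadjusted p under 0.05). Under repeated quantile normalization the medians were 0.32, -0.03 and 0.17. The lowest differences of the family between CD34+Flt3- and CD34-Flt3- cells were those of Mrpl11 and Mrpl12, which lie at or next to the flexible stalk that recruits translation factors. Mrpl11 gave 9.76 and 9.87 in the CD34-Flt3- duplicates, 8.81 and 9.15 in those of CD34+Flt3- and 9.37 and 9.38 in those of CD34+Flt3hi. The groups did not overlap, and CD34+Flt3- cells lay lowest. The first difference, -0.84 ± 0.22 (SE), did not pass (limma adjusted p = 0.0943), and 2 other probe sets of Mrpl11 gave -0.52 and 0.12, while the remaining one had a mean below background. The probe set used carries an x in its name, which marks probes that can also bind other transcripts, and without such probe sets the difference was -0.52 (adjusted p = 0.299).

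Mrpl12, the stalk protein itself, gave 9.33 and 8.91 in the CD34-Flt3- duplicates, 8.26 and 8.80 in those of CD34+Flt3- and 8.43 and 8.64 in those of CD34+Flt3hi. Both CD34-Flt3- arrays lay above the other 4. The differences from CD34-Flt3- cells were -0.59 (adjusted p = 0.317) for CD34+Flt3- and -0.59 (adjusted p = 0.3) for CD34+Flt3hi cells, and 0 of them passed. Mrpl1, of the stalk at which spent tRNA leaves, and Mrpl27, which reaches towards the catalytic centre, lay on the other side. Mrpl1 exceeded its CD34-Flt3- level by 0.77 ± 0.31 (SE) in CD34+Flt3hi cells (adjusted p = 0.212), and a further probe set gave 0.39, while the remaining one had a mean below background. Mrpl27 gave 8.88 and 8.11 in the CD34-Flt3- duplicates, 9.41 and 8.88 in those of CD34+Flt3- and 9.37 and 9.03 in those of CD34+Flt3hi, with differences of 0.65, 0.06 and 0.71 (adjusted p = 0.331, 0.992 and 0.269). Without CD34-Flt3- replicate 1 the last comparison passed for Mrpl1 (1.12, adjusted p = 0.04) and for Mrpl27 (1.09, adjusted p = 0.0362). From CD34+Flt3- to CD34+Flt3hi cells the lowest values of this class were those of Mrpl14 (-0.53), Mrpl20 (-0.44) and Mrpl21 (-0.30), with adjusted p between 0.87 and 0.944.

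Large subunit proteins without a bacterial counterpart, 21 genes, coat the outside of the particle. By limma 0 were called in each comparison (0, 1 and 2 at an unadjusted p under 0.05). Their medians were -0.02, 0.09 and 0.09, and 0.23, -0.06 and 0.22 under repeated quantile normalization. Mrpl43 gave 8.65 and 8.33 in the CD34-Flt3- duplicates, 8.81 and 9.15 in those of CD34+Flt3- and 9.33 and 9.08 in those of CD34+Flt3hi. Its CD34-Flt3- arrays were the lowest of the 6. The difference over both steps was 0.72 ± 0.25 (SE), with a 95% interval of 0.16 to 1.28, and did not pass (limma adjusted p = 0.15). Mrpl54 had the next largest difference of this comparison after Mrps18c and Mrps15, 0.84 ± 0.41, but its CD34-Flt3- arrays lay as far apart as 5.76 and 6.71 (adjusted p = 0.321). Mrpl42 differed by 0.47 between CD34+Flt3hi and CD34+Flt3- cells (adjusted p = 0.836).

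Mrpl52 ran the other way. It gave 10.31 and 10.71 in the CD34-Flt3- duplicates, 10.44 and 10.47 in those of CD34+Flt3- and 9.89 and 9.99 in those of CD34+Flt3hi. The CD34+Flt3hi arrays were below all others. The differences were -0.06, -0.52 (adjusted p = 0.637) and -0.57 ± 0.21 (SE; adjusted p = 0.167), and the last was -0.78 (adjusted p = 0.0354) without CD34-Flt3- replicate 1. In the last comparison 2 other probe sets gave -1.10 and -0.90, and the remaining one had a mean below background. Mrpl46 gave -0.43 there (adjusted p = 0.38). Mrpl50 rested on 1 array, CD34-Flt3- replicate 1, which read 8.43 where the other 5 lay between 7.25 and 7.68. Its first difference was -0.58 (adjusted p = 0.448), and -1.15 (adjusted p = 0.0396) without CD34-Flt3- replicate 2. Its other probe set, above background, gave 0.09 in the first comparison and 0.51 in the last, where the one used gave -0.18.

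How far other probe sets of the same genes went the same way varied. Of the 76 genes 34 had 1 probe set and 42 had several. Of the 80 probe sets not used, 17 had a mean below background. Without these, 37 genes had several, and in the 3 comparisons 20, 20 and 21 of the 37 had at least 1 probe set of the opposite sign, whatever the size of its difference.

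Other genes of mitochondrial translation were set beside the family. None of 26 assembly factors, 13 translation factors, 19 genes of mitochondrial tRNA charging, 10 genes of mitochondrial DNA and transcription and 4 ribosomal proteins with other names passed the threshold by limma in any of the 3 comparisons. Over these 72 genes 11, 2 and 6 had an unadjusted p under 0.05, where 16.9%, 6.76% and 18.3% of all genes had one. In the first comparison the medians were -0.21 for assembly factors, -0.19 for translation factors, -0.20 for tRNA charging and -0.22 for DNA and transcription, and after repeated quantile normalization they were 0.01, 0.07, 0.01 and 0.01 in the same order. Tfam, which packs mitochondrial DNA, gave -0.87 (adjusted p = 0.178), Twnk, the replicative helicase gene, -0.76 (adjusted p = 0.149), and Mtg1, a GTPase of large subunit assembly, -0.87 (adjusted p = 0.118). Mettl15, a methyltransferase of the small subunit RNA, differed by 0.85 between CD34+Flt3hi and CD34-Flt3- cells (adjusted p = 0.0914).

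Of 10 regulators associated with mitochondrial gene expression, 1 was called, as lower in the first and last comparisons. Of all genes 1.33% and 3.5% were called lower there. Without adjustment, limma gave p under 0.05 for 3, 2 and 4 of the 10, and for 16.9%, 6.76% and 18.3% of all genes. With so short a list, 1 call cannot show a departure from all genes. Mycn, which encodes a broadly acting growth-related transcription factor of the Myc family, gave 10.10 and 8.70 in the CD34-Flt3- duplicates, 7.55 and 7.21 in those of CD34+Flt3- and 6.63 and 6.76 in those of CD34+Flt3hi. It fell by 2.02 in CD34+Flt3- cells (limma adjusted p = 0.0392) and by 2.70 in CD34+Flt3hi cells (adjusted p = 0.00417) relative to CD34-Flt3- cells. The first of these was lost without CD34+Flt3- replicate 1 or 2 (adjusted p = 0.107 and 0.369) and without CD34+Flt3hi replicate 1 or 2 (adjusted p = 0.092 and 0.094), while the last kept an adjusted p of at most 0.0474 when 1 array was left out. Averaging all its probe sets, the last difference was -1.02 (adjusted p = 0.0692). Myc itself differed by -0.05 and 0.29 from CD34-Flt3- cells.

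Subunits of oxidative phosphorylation, among them the partners of this ribosome's products, were taken by symbol, 81 genes. Of these 5 were higher in CD34+Flt3hi cells than in the CD34-Flt3- group past the threshold, against 2.62% of all genes called higher, and 0 were lower. They were the cytochrome c oxidase genes Cox5a, Cox6a1 and Cox7a2, Ndufs8 of complex I and Ndufa4, a cytochrome c oxidase subunit gene named for complex I. Ndufa4 had the largest difference of the 5, 1.48 (adjusted p = 0.0255). Without either CD34+Flt3hi array all 5 missed the threshold (adjusted p from 0.0638 to 0.441), as did 3 without CD34-Flt3- replicate 2 (up to 0.0572) and 2 and 4 without CD34+Flt3- replicates 1 and 2 (up to 0.0578 and 0.0603). Averaging probe sets, dropping the intensity trend, using the 4 arrays compared and leaving out s and x probe sets lost 3, 3, 4 and 2 of them. The median of the list was 0.12, 0.06 and 0.13 in the 3 comparisons, and 0.34, -0.08 and 0.17 under repeated quantile normalization, by which 3, 0 and 5 were called. Cytosolic ribosomal protein genes, 49 by symbol, had medians of -0.07, 0.03 and -0.01, with 1, 0 and 0 called, and each changed sign under at least 1 of the other scalings.

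**Figure D4:**
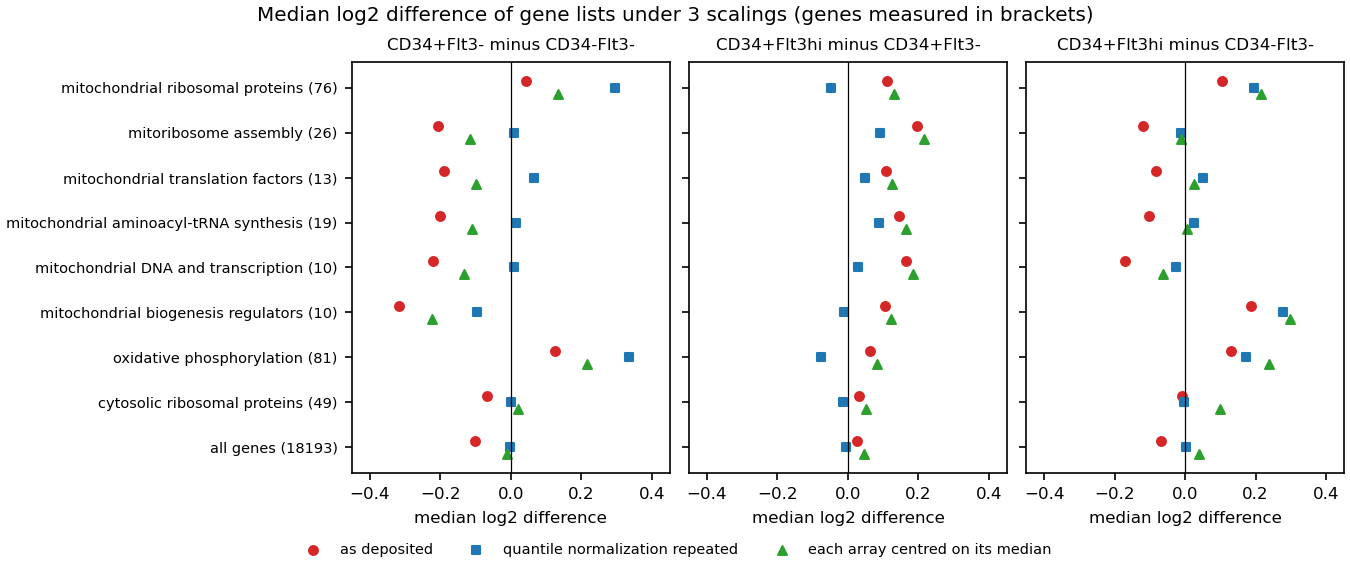
Median log2 difference (horizontal axis) of 8 gene lists and of all genes in the 3 comparisons, as deposited, after repeated quantile normalization and after centring each array on its median. The mitochondrial ribosomal protein genes lie at 0.04, 0.11 and 0.11 as deposited, and the 3 scalings put them on both sides of 0 in the middle panel.

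Promoters were read for the 67 family members with an entry in the RefSeq table of GRCm38.p6, as 300 bases, 250 before the start and 50 after it. Divergent neighbours were common. For 25 of the 67 members (37.3%) the start of another gene lay on the opposite strand at most 1000 bases upstream, compared with 16.2% of the 14368 measured genes with an entry. CCGGAAG, searched on both strands, was found in 25 member promoters (37.3%), against 15% of the promoters of measured genes and 8.86% of all 32851 promoters of this length. AANATGGCG, a YY1 sequence, was in 11 (16.4%, against 4.27% and 2.38%), and an NRF1 sequence, GCGC and TGCGC with any 1 base between, in 12 (17.9%, against 8.63% and 4.6%). CACGTG was found in 5 (7.46%, against 10.3% and 7.15%), TGACGTCA in 2 (2.99%, against 2.94% and 1.79%), CCAAT in 26 (38.8%, against 42% and 37.4%) and TATAAA in 5 (7.46%, against 11.5% and 13.6%). The motifs as spelled do not contain one another. Such matches describe these letters in this window, and no test was made of the difference in shares. The median GC content was 58.7% for members and 58.3% for measured genes.

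Members were then set out by motif. The 11 with the YY1 letters had a median difference of 0.40 between CD34+Flt3hi and CD34-Flt3- cells, 10 of them positive, and the 56 without had 0.05, 29 of them positive. After repeated quantile normalization these medians were 0.50 and 0.16, with 10 and 35 positive. For the ETS letters the medians were 0.19 in 25 members and 0.01 in 42, and for the NRF1 letters 0.01 in 12 and 0.16 in 55; repeated normalization gave 0.28 and 0.11 for the former and 0.09 and 0.24 for the latter. These counts are a description, and the members share their arrays.

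The sequences between divergent starts are shown for 3 pairs in which the values of the neighbours differed, together with the stretch of Mrpl12 that holds the NRF1 letters. Capitals mark CCGGAAG in Mrpl43 and GCGCCTGCGC, the match of the NRF1 sequence, in Mrpl12. The other stretches hold no searched letters. Outside its stretch Mrpl27 has CCGGAAG at position -55 from the start and the YY1 letters at 8, and Mrpl46 has TATAAA at -131. Mrpl43 and Twnk start 116 bases apart (chr19:45006443-45006557, minus strand), Mrpl46 and Mrps11 42 bases apart (chr7:78783090-78783130, minus strand) and Mrpl27 and Eme1 48 bases apart (chr11:94653744-94653790, plus strand). Of Mrpl12 the 250 bases before the start are given (chr11:120484387-120484636, plus strand).
Mrpl43: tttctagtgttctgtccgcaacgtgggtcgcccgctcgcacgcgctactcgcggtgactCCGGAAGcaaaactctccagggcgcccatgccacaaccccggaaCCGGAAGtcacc
Mrpl46: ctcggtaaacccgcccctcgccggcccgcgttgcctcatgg
Mrpl27: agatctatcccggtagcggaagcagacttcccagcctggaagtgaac
Mrpl12: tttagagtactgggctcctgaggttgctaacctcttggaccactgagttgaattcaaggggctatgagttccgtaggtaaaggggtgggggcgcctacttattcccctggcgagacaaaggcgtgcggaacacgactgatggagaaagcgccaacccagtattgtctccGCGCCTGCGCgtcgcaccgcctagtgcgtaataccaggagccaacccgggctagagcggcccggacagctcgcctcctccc

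The neighbours' own values were then set beside those of the family. Among 24 pairs the signs matched in 10, 15 and 17 pairs in the 3 comparisons. Between CD34+Flt3hi and CD34-Flt3- cells, Mrpl43 stood at 0.72 and Twnk, the mitochondrial DNA helicase gene, at -0.57 (adjusted p = 0.246). Mrpl46 stood at -0.43 and Mrps11, a small subunit gene of the same family, at 0.51 (adjusted p = 0.408). Mrps18c stood at 1.04 while Helq stood at 0.22 (adjusted p = 0.748). None of these differences between neighbours was tested.

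In 2 of the 24 pairs the neighbour was called over both steps and the family member was not, where 6.11% of all genes were called. Eme1, a subunit of a DNA repair nuclease, was higher in CD34+Flt3hi cells than in the CD34-Flt3- group by 2.08 ± 0.37 (SE; limma adjusted p = 0.00905), beside 0.71 for Mrpl27. Ncapd2, a condensin subunit gene that starts 614 bases from Mrpl51, was higher by 2.15 ± 0.33 (adjusted p = 0.00468), beside 0.30 for Mrpl51 (adjusted p = 0.498). Ncapd2 was also higher in CD34+Flt3- than in CD34-Flt3- cells, by 1.88 (adjusted p = 0.0254). Without CD34+Flt3hi replicates 1 and 2 the adjusted p over both steps was 0.119 and 0.0502 for Eme1 and 0.0578 and 0.0559 for Ncapd2. Eme1 gave 5.83 and 4.79 in the CD34-Flt3- duplicates, 6.85 and 6.95 in those of CD34+Flt3- and 7.64 and 7.14 in those of CD34+Flt3hi, and Ncapd2 gave 8.62 and 7.49, 9.86 and 10.02, and 10.22 and 10.19 for these groups. The lowest array for both was CD34-Flt3- replicate 2, as it was for the mean of the G2 and M phase genes, whose part in these values was not tested.

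**Figure D5:**
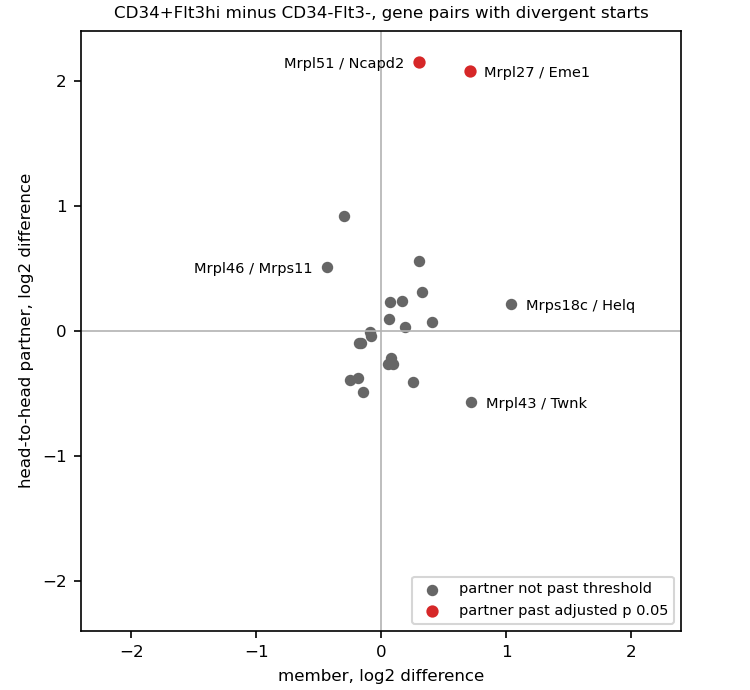
Log2 difference between CD34+Flt3hi and CD34-Flt3- cells for 24 family members (horizontal axis) and for the gene that starts on the opposite strand at most 1000 bases upstream (vertical axis), on equal axes. Most pairs lie close to the origin, and the neighbours Ncapd2 (2.15) and Eme1 (2.08), in red, are the 2 past an adjusted p of 0.05.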

How the data were processed

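RNA of 6 samples was measured on Affymetrix arrays. Per the submitters' processing notes the authors used RMA (background correction, quantile normalization and probe summary), version not stated; genome build and probe annotation version are not given in the sources used here. The deposited intensity values are taken as linear, since they run from 6.5 to 24173, and their log2 was used. Normalized values are relative, so a change shared by most genes cannot be seen, and amplification from the 3 prime end makes the place of the probes matter.

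Of 45101 probe sets, 34945 carried 1 gene symbol, 932 several and 9160 none in GEO's platform annotation. For each of 18193 genes the brightest probe set by mean was used. Limma 3.58.1 in R 4.3.3 fitted the 3 groups on all 6 arrays (empirical Bayes, trend with intensity); its two-sided p-values were adjusted over the 18193 genes (Benjamini-Hochberg) and called under 0.05. Array numbers limit the precision. The steps were tested on simulated data. Family members and lists were chosen with earlier results of these data known. Bacterial counterparts, assembly factors and the other lists were set by symbol from general knowledge. Named members are those called, the 4 highest and 4 lowest differences of each comparison, the 3 highest and 3 lowest mean levels, and the S18 relatives; other genes named with values, the divergent pairs among them, were chosen after their values were seen. Alternatives were the title code as a block, no trend, repeated quantile normalization, median centring, leaving out dim genes, averaging the probe sets of a gene, dropping those with an s or x suffix, the 4 arrays compared and omitting each array. Promoters came from RefSeq (GRCm38.p6). Files were handled in pandas 2.3.3 under Python 3.11.15 and plotted in matplotlib 3.10.9.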

Additional observations from a re-analysis of the deposited data

How the results depend on the processing

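Values are given in the order CD34+Flt3- against CD34-Flt3-, CD34+Flt3hi against CD34+Flt3-, and CD34+Flt3hi against CD34-Flt3- (first, middle and last comparison). By limma 382, 111 and 1112 genes and 0, 0 and 1 family members passed, with family medians of 0.04, 0.11 and 0.11. Taking the title code as a fixed replicate block, 1579, 670 and 2360 genes and 2, 0 and 7 members passed; since only code A holds all groups and same-code arrays did not deviate together in every group (r of 0.31, 0.07 and 0.06 across all genes, and 0.36, 0.17 and 0.25 across the family alone), the codes were not taken as pairing. Repeated quantile normalization called 1 member in the first comparison and gave medians of 0.29 in the first and -0.050 in the middle one, a reversal; it also moved the median of all genes from -0.10 to -0.002 in the first. Centring gave 0.22 in the last. Averaging probe sets called 199 and 69 genes in the first and middle comparisons, with a family median of 0.039 in the middle one. Using the 4 arrays compared called 47 and 300 genes there and 0 members in the last, where dropping the intensity trend also called 0 (6 at an unadjusted p under 0.05 in both). Leaving out 1 array gave 0 to 983, 18 to 300 and 271 to 1918 genes, 0 to 2, 0 and 0 to 6 members, and medians of -0.079 to 0.081, 0.082 to 0.12 and 0.04 to 0.21. The first count fell to 0 without CD34+Flt3- replicate 2 (1569 at an unadjusted p under 0.05), and the first median was -0.079 without CD34-Flt3- replicate 2. The other settings left these counts within 1.5 times and these medians within the spread between arrays, and the cause of each change was not tested. With 2 arrays per group, the 95% interval of a member reached a median of 0.57 to each side of its difference, with a range of 0.405 to 0.916.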

Other observations

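4 probe sets named a family member together with another gene and entered no comparison. For Mrpl30, named with Gm6238 on 2 of them, 1 had a mean below background, and on the other the log2 differences were 0.13, 0.44 and 0.56 for the first step of the sort, the next step and both steps together. For Mrpl53, named with Ccdc142, they were -0.44, 0.16 and -0.28. The probe set of Mrps34 named with Nme3 gave -0.33, -0.33 and -0.66, while the one of Mrps34 alone gave -0.38, 0.19 and -0.19. Signal of the other gene cannot be told apart from those of the family member on such probe sets, and no test was made.

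Among the members named for their mean level alone, Mrpl39 gave 10.96 and 11.08 in the CD34-Flt3- duplicates, 10.82 and 10.74 in those of CD34+Flt3- and 10.85 and 11.10 in those of CD34+Flt3hi. Its CD34+Flt3- arrays were the lowest of the 6. Mrps14, a small subunit protein with a bacterial counterpart, gave differences of 0.04, 0.15 and 0.20, and Mrpl37 gave -0.19, 0.25 and 0.06; the adjusted p of both was at least 0.707 in each comparison by limma.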
